A study of Homo sapiens with 414 samples.

Results

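The 31 genes described here make cholesterol and fatty acids or control that synthesis, and all were present among the 19097 human genes of the single-cell tables. They were chosen by name, as genes of these pathways, though with earlier results of these data known. The sterol branch holds 16 of them: ACAT2, HMGCS1, MVK, PMVK, MVD, IDI1, FDPS, FDFT1, SQLE, LSS, CYP51A1, TM7SF2, NSDHL, HSD17B7, EBP and DHCR7. The fatty acid branch holds 9: ACLY, ACSS2, ACACA, FASN, ELOVL6, SCD, FADS1, FADS2 and LPIN1. The remaining 6 are SREBF1, SREBF2, SCAP, INSIG1, INSIG2 and STARD4, which sense sterols, drive transcription or carry cholesterol.

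RNA was measured in H1 and H9, established human embryonic stem cell lines, both kept undifferentiated in E8, a defined serum-free medium, on Matrigel, an extracellular matrix coating. Single cells were caught on a C1 microfluidic chip, copied into full-length cDNA and sequenced in 51 bp single reads, as 92 H1 cells of passages 20 to 30 and 91 H9 cells of passages 25 to 35. The same cDNA was pooled at 24 and again at 96 libraries per lane, and values below are from 24 per lane unless stated. The bulk group was 48 H1 libraries of passage 16, pooled at 48 per lane and made by ligation-mediated sequencing from poly-A RNA primed with random hexamers. The 2 lines carried no transgene and received no treatment in the labels. Line, chip, run and passage range differed together, and bulk and cells differed in chemistry, passage and run, so these cannot be told apart. Whether each bulk library had a culture of its own is not stated, so their SD may be technical only.

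Human counts per library had a median of 3698611 in H1 cells (1136295 to 8096756), 3863508 in H9 cells (1568326 to 7758948) and 2965023 in bulk (2099639 to 3964675). All 6 markers of undifferentiated stem cells (POU5F1, NANOG, SOX2, LIN28A, DNMT3B and TDGF1) were read in every cell of both lines. The summed level of 7 early germ layer genes had a median of 0 CPM (human counts scaled to a total of 1e+06 per library) in each line. Of 5 fibroblast genes, 3 were at 0 in all H1 cells and 2 in all H9 cells, and their summed level had a median of 13 CPM in H1 and 14.4 CPM in H9. An unusual share of spike-in or mitochondrial counts marked 5 H1 and 2 H9 cells, and 4 other H9 cells resembled each other more than any other pair did. Some results are also given without these cells, and a value given alone may have moved without them.

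Cholesterol is built from acetyl-CoA through the mevalonate pathway, which leads through isoprenoids and squalene to lanosterol and then, by demethylation and reduction, to cholesterol. Fatty acids are built from the same precursor by acetyl-CoA carboxylase and fatty acid synthase, and are then lengthened and desaturated. When sterols are scarce, SCAP escorts the SREBP transcription factors (encoded by SREBF1 and SREBF2) from the endoplasmic reticulum to the Golgi, where they are cut and freed to enter the nucleus, and the INSIG proteins hold them back when sterols are plentiful. E8 medium contains no serum, the usual source of lipoprotein cholesterol in culture.

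Promoter sequences were found for 27 of the 31 members in a RefSeq table on GRCh38.p14. ACAT2, FDFT1, SQLE and FASN had no entry. The 250 bases before the start are shown for 4 members on which later comparisons turn. SREBF2 and INSIG1 differed most between the lines among members at 10 CPM or more in H1 or H9. HMGCS1 and SCD, with INSIG1, had the most co-varying partners among members in H1 cells (9, 6 and 7). In these sequences, read 5′ to 3′ on the gene's own strand, capitals mark every match to a sterol regulatory element (TCACNCCAC), an E-box (CACGTG) or a CCAAT box (CCAAT), each searched on both strands. The stretches are chr22:41832855-41833104 on the + strand for SREBF2, chr7:155297628-155297877 on the + strand for INSIG1, chr5:43313413-43313662 on the - strand for HMGCS1 and chr10:100346983-100347232 on the + strand for SCD.
SREBF2: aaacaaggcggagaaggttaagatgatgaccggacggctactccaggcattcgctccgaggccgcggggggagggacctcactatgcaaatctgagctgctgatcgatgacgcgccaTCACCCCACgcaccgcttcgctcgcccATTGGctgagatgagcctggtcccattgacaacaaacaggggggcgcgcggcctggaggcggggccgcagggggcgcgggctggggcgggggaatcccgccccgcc
INSIG1: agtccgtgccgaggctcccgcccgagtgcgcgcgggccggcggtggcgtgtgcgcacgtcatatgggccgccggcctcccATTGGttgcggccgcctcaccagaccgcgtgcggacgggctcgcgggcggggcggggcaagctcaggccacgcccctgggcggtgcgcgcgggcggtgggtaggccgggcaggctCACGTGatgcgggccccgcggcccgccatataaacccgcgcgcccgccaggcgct
HMGCS1: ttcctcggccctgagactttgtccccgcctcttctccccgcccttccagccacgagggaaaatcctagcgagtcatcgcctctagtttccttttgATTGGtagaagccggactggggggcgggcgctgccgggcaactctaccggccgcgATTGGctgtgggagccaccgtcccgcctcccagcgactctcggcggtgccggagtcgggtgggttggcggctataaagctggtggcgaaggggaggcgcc
SCD: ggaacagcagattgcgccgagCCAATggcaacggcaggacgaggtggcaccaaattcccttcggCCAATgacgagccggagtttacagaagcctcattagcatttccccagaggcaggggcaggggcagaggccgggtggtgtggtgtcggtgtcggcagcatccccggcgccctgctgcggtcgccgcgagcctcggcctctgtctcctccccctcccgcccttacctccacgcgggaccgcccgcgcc
The SREBF2 stretch held 1 sterol regulatory element and 1 CCAAT box. The INSIG1 stretch held 1 E-box and 1 CCAAT box, and the HMGCS1 and SCD stretches held 2 CCAAT boxes each and neither other motif.

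Over the full window, 250 bases before to 50 after each listed start, a CCAAT box was present for 19 of the 27 members (70.4%), against 42.6% of 13632 genes searched alike. In the sterol branch it was present for 11 of 13. The GC box (GGGCGG, both strands) was present for 26 of 27 (96.3%), against 65.6% of genes. An E-box was present for 3 (LSS, SCAP and INSIG1; 11.1%), against 11.05%, and the sterol regulatory element as spelled here for 1 (SREBF2; 3.70%), against 1.53%. A match describes these letters only.

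Nearly all members were read in most cells. A count of at least 1 was found in 50% or more of the cells for 30 of 31 members in H1 (58.2% of all human genes met this) and for 31 of 31 in H9 (56.7% of all genes). The exception was ACSS2, which makes acetyl-CoA from acetate and was read in 37 of 92 H1 cells (40.2%, exact binomial 95% interval 30.1 to 51.0) and 56 of 91 H9 cells (61.5%, 50.8 to 71.6). Such intervals, and the Poisson intervals below, cover counting error only, and not chips or cultures. Per kilobase of the longest coding transcript, the summed H1 cells held most FDFT1, the squalene synthase, at 316 CPM per kb, followed by FDPS at 212, SCD at 170, HMGCS1 at 156 and ACAT2 at 152 CPM per kb. The lowest were ACSS2 at 1.05, SREBF2 at 1.30, SREBF1 at 1.34 and FASN at 1.45 CPM per kb. The order differed in bulk, where SCD was at 358, HMGCS1 at 335, FDPS at 216, FDFT1 at 151 and FASN at 40.8 CPM per kb.

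**Figure D1:**
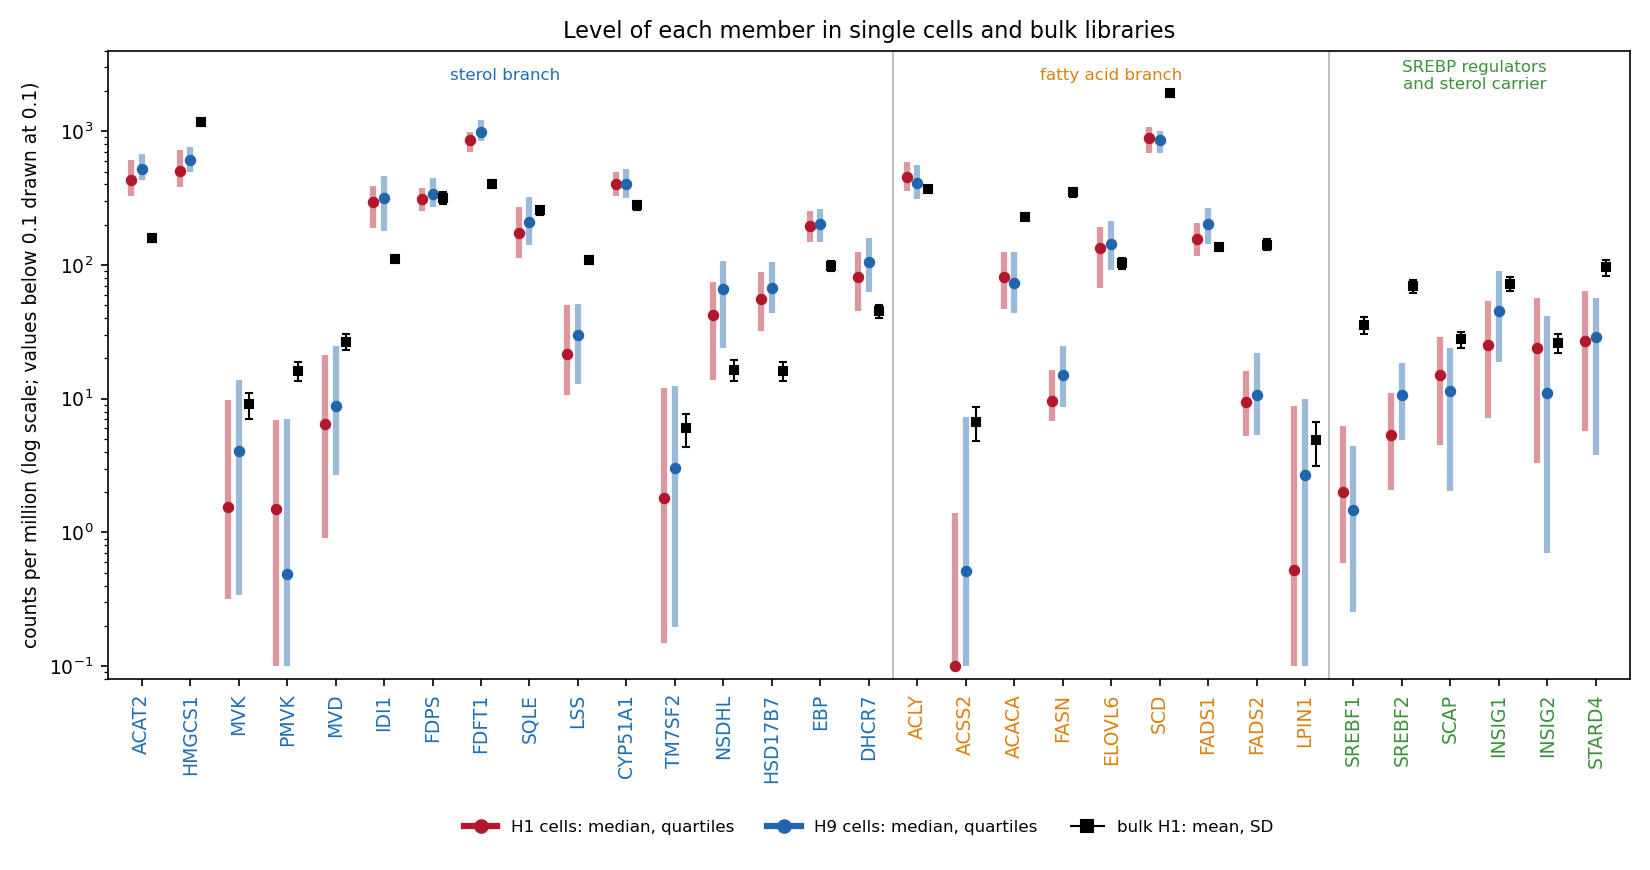
Level of each of the 31 members in CPM on a log axis: circles and bars are the median and quartiles over 92 H1 cells (red) and 91 H9 cells (blue), squares and bars the mean and SD over 48 bulk H1 libraries. FDFT1, HMGCS1 and SCD sit near the top in all 3 groups, while FASN, FADS2, SREBF1 and SREBF2 are far lower in cells than in bulk.

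Within the mevalonate part of the sterol branch, HMGCS1, which joins acetoacetyl-CoA and acetyl-CoA, ranged over H1 cells from 108 to 1396 CPM with a median of 507 CPM. In H9 cells it ranged from 285.4 to 1809 CPM with a median of 612 CPM. The ranges overlapped over most of their length. The kinases and the decarboxylase that follow, MVK, PMVK and MVD, were low, with levels in summed H1 cells of 5.88, 5.07 and 19.1 CPM. IDI1, which isomerises isopentenyl diphosphate, ran from 1.69 to 745 CPM over H1 cells with a median of 297 CPM, and its lowest cell lay far below the lower quartile of 188 CPM.

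Between the lines, more members were higher in H9 than in H1. Counting only the 27 members that reached 10 CPM in H1 or H9, 21 were higher in H9 (47.9% of 8851 genes so filtered) and 6 in H1. TM7SF2, LPIN1 and SREBF2 were under 10 CPM in H1. They passed only through H9, so their direction was set by the limit. The median log2 ratio of summed H1 over summed H9 cells was -0.17 over the 27 members, against 0.02 over all genes. TM7SF2, LPIN1 and SREBF2 were kept in this median and in those by branch. Counts were 12 of 14 in the sterol branch with a median log2 ratio of -0.19, 6 of 8 in the fatty acid branch with -0.16, and 3 of 5 among regulators with -0.17. At a minimum of 1 CPM, where SREBF1 entered, 3 of 6 regulators were higher in H9 and their median was 0.10, and without each gene's highest cell it was -0.04. No test between lines exists, since the cells of each line came from 1 chip. The sterol genes NSDHL (-0.33) and EBP (0.03) are X-linked, and the 342 X-linked genes compared had a median of -0.23.

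Most of these differences were small beside the spread between cells. FDFT1, for example, had a median of 855 CPM over H1 cells (8.16 to 1683) and 991 CPM over H9 cells (260.97 to 2054). Its log2 ratio was -0.31 (Poisson interval -0.32 to -0.30), and the cells of both lines overlapped widely. The ratio reached 2-fold for 1 of the 27 members, where 4.06% of all genes did. That member was SREBF2, on the H9 side, where 2.23% of all genes lay, and 0 members reached it on the H1 side, where 1.83% did.

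SREBF2 encodes SREBP-2, the transcription factor best known for driving sterol synthesis genes, and its promoter is shown above. Over H1 cells it had a lowest value of 0, a median of 5.39 and a highest of 44.5 CPM. Over H9 cells these were 0, 10.7 and 117 CPM. The line medians differed, while the cells overlapped. The summed H1 cells held 6.95 CPM and the H9 cells 14.7 CPM, for a log2 ratio of -1.08 (-1.18 to -0.98), and -1.25 at 96 libraries per lane. SREBF2 was thus under 10 CPM in H1 and was counted only through its level in H9. SREBF1, whose products mainly drive fatty acid genes, lay the other way, with 5.71 CPM in H1 against 3.09 CPM in H9. Its log2 ratio was 0.89 (0.74 to 1.03), but it stayed under 10 CPM in both lines and so is in neither count.

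The INSIG pair, which retain the SCAP and SREBP complex, also lay on opposite sides. INSIG1 had a median of 25.4 CPM over H1 cells (0 to 174) and 45.6 CPM over H9 cells (0 to 253.4). Summed, it held 35.1 CPM in H1 against 65.3 CPM in H9, for a log2 ratio of -0.90 (-0.94 to -0.85). INSIG2 had a median of 24.1 CPM over H1 cells (0 to 225) and 11.03 CPM over H9 cells (0 to 269.1), with a log2 ratio of summed levels of 0.47 (0.42 to 0.52). For both genes the cells of the lines overlapped, with INSIG1 higher in H9 by median and INSIG2 higher in H1. SCAP, the escort protein, had 24.3 CPM in H1 against 18.8 CPM in H9, for a log2 ratio of 0.37. STARD4, a cytosolic sterol carrier, was at 40.6 and 45.6 CPM, a log2 ratio of -0.17.

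Among fatty acid genes, FASN, the fatty acid synthase, was at 12.4 CPM in summed H1 cells against 17.7 CPM in H9, for a log2 ratio of -0.51 (-0.59 to -0.43). LPIN1, a phosphatidate phosphatase, was at 9.29 and 12.6 CPM, a log2 ratio of -0.44. ACLY, which splits citrate to acetyl-CoA, was at 467 and 430 CPM, and SCD, the delta-9 desaturase, at 913 and 873 CPM, the 2 members of this branch that were higher in H1. ACSS2 showed the widest ratio of all 31, with 3.23 CPM in H1 against 8.98 CPM in H9 and a log2 ratio of -1.48 (-1.61 to -1.34), but it too stayed under 10 CPM. At a minimum of 1 CPM it becomes a further member past 2-fold.

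**Figure D2:**
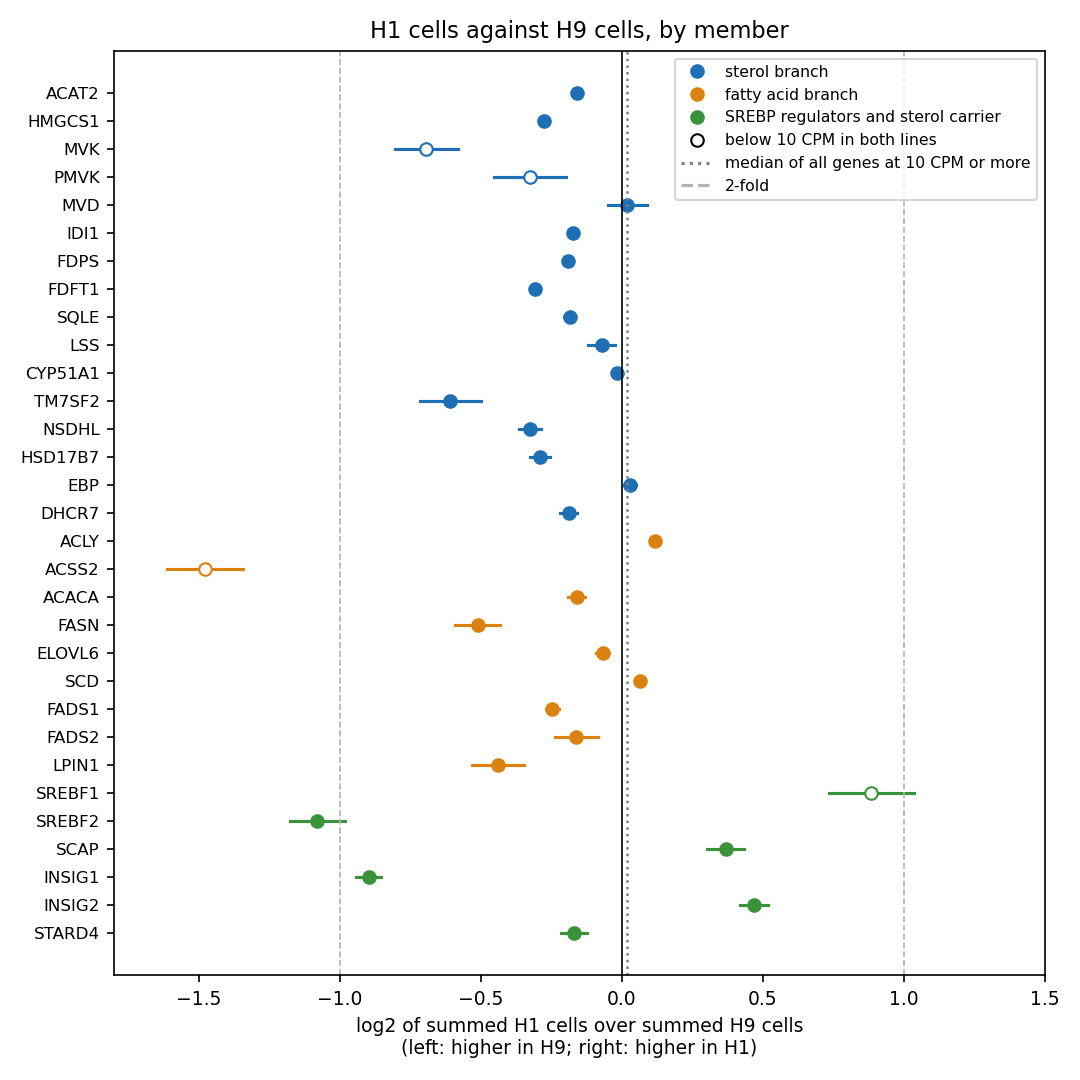
Log2 ratio of summed H1 over summed H9 cells for each member, with the exact Poisson 95% interval as a bar, coloured by branch. Open circles were below 10 CPM in both lines, the dotted line is the median of all genes (0.02), and most points lie to its left, with SREBF1, INSIG2 and SCAP to its right.

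The same H1 line in bulk gave another profile, and the branch medians of the members lay apart. With mitochondrially encoded genes left out of both totals, 27 members reached 10 CPM in H1 cells or bulk. At least 2-fold higher in cells were 7 of 27 (30.1% of 9647 genes), and all 7 were sterol genes: HSD17B7, NSDHL, ACAT2, IDI1, DHCR7, EBP and FDFT1. At least 2-fold higher in bulk were 9 of 27 (21.5% of genes): HMGCS1, PMVK and LSS of the sterol branch, ACACA, FASN and FADS2 of the fatty acid branch, and SREBF1, SREBF2 and STARD4. PMVK, SREBF1 and SREBF2 were under 10 CPM in cells and passed only through bulk, so their direction was set by the limit. HMGCS1 lay at the 2-fold edge, with a log2 ratio of -1.02. It was at -0.97 without cells of unusual share and -0.99 by the mean of per-cell CPM. The median log2 ratio of cells over bulk was 0.91 in the sterol branch, -0.98 in the fatty acid branch and -1.06 among regulators, against 0.24 over all genes. These medians include PMVK, SREBF1 and SREBF2, whose direction was set by the limit. The other regulators were SCAP at -0.11, INSIG1 at -0.96, INSIG2 at 0.83 and STARD4 at -1.15. The fatty acid median rests on 7 genes, which ran from -4.72 to 0.62. Without the 5 H1 cells of unusual share, LPIN1 came over 10 CPM as the 8th member past 2-fold in cells and the only one of the fatty acid branch, whose median was then -0.30. LPIN1 was at 4.94 CPM in bulk and passed only through cells, so its direction was set by the limit. At a minimum of 1 CPM the sterol median was 0.44. In a bulk library, fewer cells making an RNA and less of it per cell cannot be told apart.

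FASN stood farthest from bulk. It was at 0.651 to 67.6 CPM over H1 cells with a median of 9.66 CPM, and at 291.1 to 449 CPM over bulk libraries with a median of 352 CPM. No H1 cell reached the lowest bulk library. Summed H1 cells held 13.2 CPM against 350 ± 27.97 CPM (SD, n = 48) in bulk, a log2 ratio of -4.72, and H9 cells set against the same bulk gave -4.19. Although low, FASN was read in all 92 H1 and all 91 H9 cells. Its cell-to-cell spread, the squared coefficient of variation as a log2 ratio to genes of like level, was -1.42 in H1 and -2.12 in H9.

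FADS2, the delta-6 desaturase, ran from 0.346 to 116 CPM over H1 cells with a median of 9.53 CPM, and from 119 to 192 CPM over bulk libraries with a median of 141 CPM. These ranges lay just apart, with mitochondrial counts in the totals of cells. At 96 libraries per lane the highest H1 cell, at 118.9 CPM, passed the lowest bulk library, at 118.7 CPM. The log2 ratio of summed H1 cells over bulk was -3.16. FADS1, the delta-5 desaturase, lay the other way, at 184 CPM in summed H1 cells and 135 ± 7.82 CPM (SD, n = 48) in bulk, a log2 ratio of 0.44. SREBF2 ran from 53.96 to 98.5 CPM over bulk libraries, above the highest H1 cell at 44.5 CPM, with a log2 ratio of -3.24. SREBF1 was at 6.08 CPM in cells and 35.6 ± 5.35 CPM (SD, n = 48) in bulk, a log2 ratio of -2.55.

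These 4 genes have transcripts rich in G and C, at 65.3% for FASN, 64.7% for SREBF1, 60.7% for FADS2 and 57.9% for SREBF2. The median transcript was at 46.8%. Genes of the top decile by GC content had a median log2 ratio of cells over bulk of -1.31, and those of the lowest decile 0.75. The top decile began at 59.9%, above SREBF2. Other members of high GC content lay at varied distances from bulk. MVD (65.6%) was at a log2 ratio of -0.39, SCAP (62.3%) at -0.11, PMVK (59.5%) at -1.58, LSS (58.3%) at -1.47 and DHCR7 (58.3%) at 1.19. STARD4, at a GC content of 34.2%, was at -1.15. The part of GC content in the branch difference was not tested.

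On the sterol side, HSD17B7, a keto-reductase of sterol demethylation, was at 67.1 CPM in summed H1 cells and 16.1 ± 2.56 CPM (SD, n = 48) in bulk, a log2 ratio of 2.06. It has near-identical copies in the genome, as FDPS does, so its counts may be split between them. NSDHL, of the same demethylating complex, was at 58.1 against 16.5 ± 3.02 CPM, a log2 ratio of 1.81. ACAT2, which starts the pathway, was at 515 against 160 ± 11.4 CPM, a log2 ratio of 1.69, and overlaps TCP1 on the other strand, whose reads could not be told apart if strand was not used in counting. HMGCS1, the next enzyme, was higher in bulk at 1176 ± 90.7 CPM against 582 CPM, a log2 ratio of -1.02, so neighbouring steps of the pathway lay on opposite sides. LSS, the lanosterol synthase, was also higher in bulk at 110 ± 7.88 against 39.6 CPM, a log2 ratio of -1.47.

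**Figure D3:**
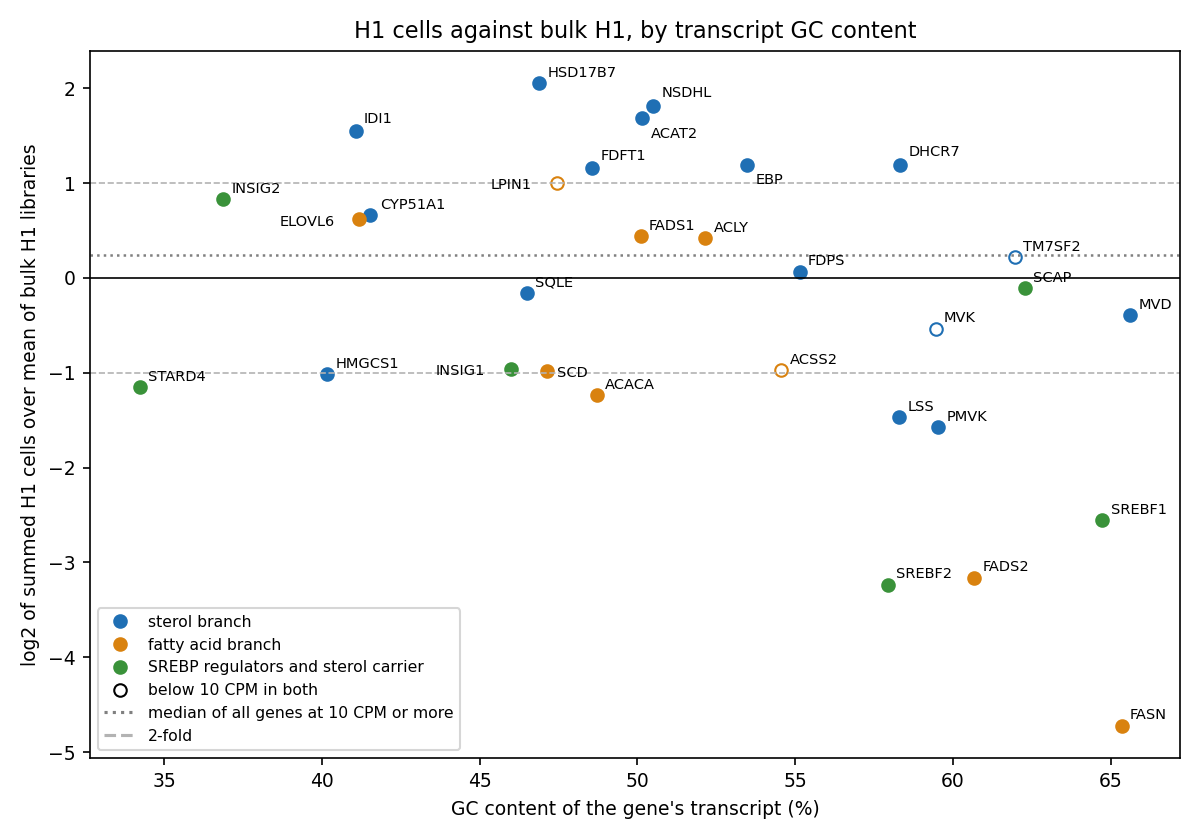
Log2 ratio of summed H1 cells over the mean of 48 bulk H1 libraries against the GC content of each member's longest coding transcript, coloured by branch, with open circles for members below 10 CPM in both. The 7 filled points above the upper 2-fold line are sterol genes, and FASN, FADS2, SREBF2 and SREBF1 lie lowest, all at a GC content of 57.9% or more.

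Other pathway genes, a list of 24 that are no members, were all in the tables. Between lines, 17 reached 10 CPM, 12 of these were higher in H9 (47.9% of all genes were), and 5 of 5 sterol genes were (MSMO1, SC5DL, LBR, TMEM97 and SOAT1), by log2 ratios of -0.67 to -0.01. Against bulk, 5 of 17 were higher in cells by 2-fold or more, near the 30.1% of all genes, 0 were higher in bulk by that much (21.5% of all genes), and no test was made. The 5 were MSMO1 (the sterol C4 methyl oxidase) at a log2 ratio of 2.56, SC5DL (the sterol C5 desaturase) at 2.03, SOAT1 (which esterifies cholesterol) at 1.14, TECR (an enoyl-CoA reductase of chain lengthening) at 1.89 and SCD5 at 5.25. SOAT1, at 6.56 CPM in bulk, and SCD5 passed only through cells, so their direction was set by the limit. The median log2 ratio was 1.14 over 5 sterol genes, 0.66 over 8 fatty acid genes and -0.25 over 4 genes of regulation. These fatty acid genes thus lay on the side of cells by median, unlike the fatty acid members. SCD5, a second delta-9 desaturase, was at 177 CPM in H1 cells, 166 CPM in H9 cells and 4.96 ± 1.60 CPM (SD, n = 48) in bulk, whereas SCD was at 972 CPM in H1 cells and 1922 ± 127 CPM (SD, n = 48) in bulk with mitochondrial genes left out of the totals of cells.

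Between single cells, members of the sterol branch spread somewhat more than genes of like level in H1 and about as much in H9. The median log2 spread ratio over 13 sterol genes in H1 was 0.36. It was 0.18 at 96 libraries per lane and 0.09 at a minimum of 1 CPM. Over 14 sterol genes in H9 it was -0.05. In the fatty acid branch the medians in H1 and H9 were 0.01 and -0.10. Spread at least 2-fold over genes of like level was found for 1 of 24 members in H1 (9.38% of all genes), MVD at 1.13, and for 0 of 27 in H9 (5.57% of all genes), where MVD was at -0.36. Spread under that of genes of like level was found for 7 of 24 members in H1 (49.3% of all genes) and 14 of 27 in H9 (49.6%). Without its highest cell, MVD was under the limit in H1, at 0.80. INSIG2 was at 0.76 in H1 and 0.98 in H9, and at 1.06 in H9 without the cells of unusual share and 1.18 without the 4 that resembled each other. HMGCS1 was at 0.81 and 0.57, IDI1 at 0.82 and 0.75 and SQLE, the squalene epoxidase, at 0.80 and 0.45, so these sterol genes lay above genes of like level in both lines. Other sterol genes lay below in both: FDPS (-0.23 and -0.66), CYP51A1 (-0.49 and -0.07), HSD17B7 (-0.62 and -0.87) and EBP (-0.14 and -0.41).

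Members also varied together between cells more often than genes at large, though weakly. Of 24 members over the limits in H1 (10 CPM, and read in 50% of cells), 26 pairs (9.42%) had a Spearman rho of 0.3 or more, where 1.36% of all gene pairs did. In H9, 16 of 351 pairs of 27 members (4.56%) did, where 1.01% of all gene pairs did. The median rho over member pairs was 0.12 in H1 and 0.07 in H9, against 0.03 and 0.01 over all gene pairs. All pairs share the same 92 or 91 libraries and their depth, genes are not independent, and these values are descriptions with no test. With ranks of total counts, genes read and mitochondrial share removed, the counts were 28 in H1 and 16 in H9.

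The sterol branch held the higher values. Its pairs had a median rho of 0.18 in H1, with 12 of 78 at 0.3 or more, and of 0.09 in H9, with 7 of 91. Pairs within the fatty acid branch had a median of 0.02 in H1, with 0 of 21, and of 0.03 in H9, with 1 of 28. Pairs of a sterol gene with a fatty acid gene had a median of 0.11 in H1 and 0.07 in H9, and those of a sterol gene with a regulator 0.12 and 0.06. The difference between branches was not tested.

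Of the pairs measured in both lines, 178 (64.5%) had a positive rho in both, where 33.9% of all gene pairs did, and 7 (2.54%) were at 0.3 or more in both, where 0.357% of all gene pairs were. These 7 are 26.9% of the 26 pairs over the limit in H1 and 50% of the 14 in H9. They were HMGCS1 with MVD (0.30 in H1 and 0.33 in H9), with IDI1 (0.31 and 0.36) and with EBP (0.32 and 0.47), IDI1 with SQLE (0.31 and 0.40) and with INSIG1 (0.40 and 0.37), and SCD with DHCR7 (0.42 and 0.31) and with INSIG1 (0.37 and 0.39). EBP is the sterol isomerase and DHCR7 makes the last reduction to cholesterol. HMGCS1, IDI1, SCD and INSIG1 thus recur in the 7. All of them are textbook SREBP targets, but the part of SREBP in these pairs was not tested. Without the 5 H1 cells of unusual share, IDI1 with SQLE was at 0.23 and HMGCS1 with MVD at 0.29, and the other 5 pairs ran from 0.40 to 0.44. Without the 4 H9 cells that resembled each other, SCD with DHCR7 was at 0.28 in H9. At 96 libraries per lane, 4 of the 7 pairs stayed at 0.3 or more in both lines, and HMGCS1 with MVD (0.27 in H1), IDI1 with SQLE (0.28 in H1) and SCD with DHCR7 (0.27 in H9) did not. With cells scaled by median-of-ratios size factors in place of total counts, SCD with INSIG1 was at 0.29 in both lines. SCD with DHCR7 was then at 0.28 in H9. By Pearson r of log2(CPM + 1), IDI1 with SQLE was at 0.16 in H1, and SCD with DHCR7 at 0.28 in H1 and 0.24 in H9. HMGCS1 with EBP and IDI1 with INSIG1 stayed at 0.3 or more under both settings. Pairs over the limit in H1 and under it in H9 included HMGCS1 with ACLY (0.48 in H1 and 0.12 in H9) and FDFT1 with HMGCS1 (0.46 and 0.24).

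**Figure D4:**
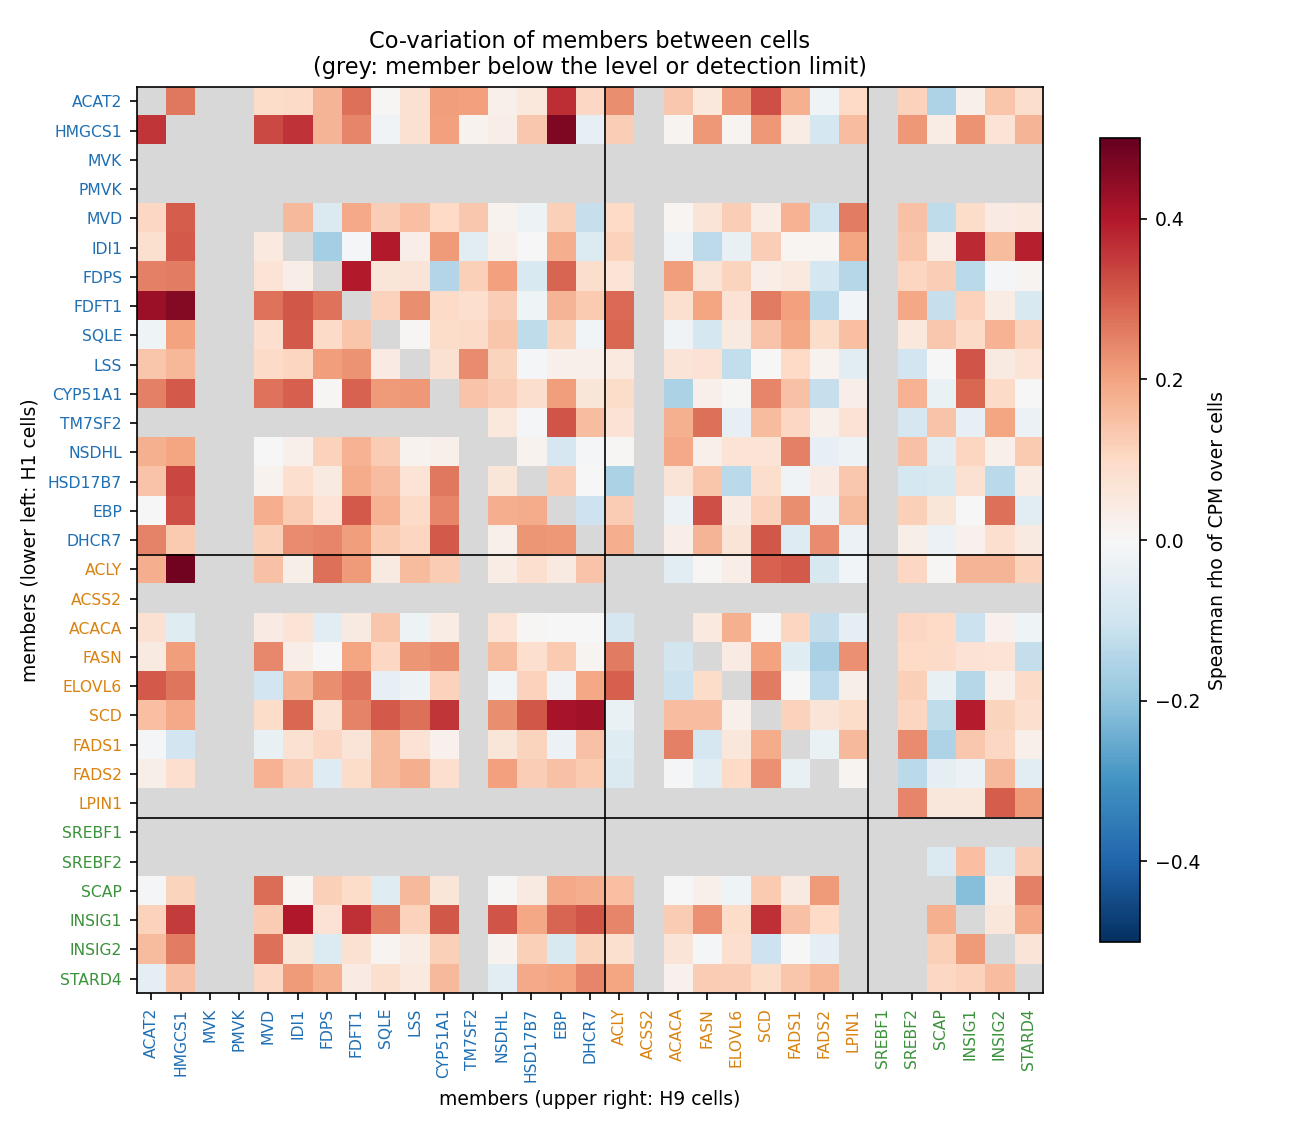
Spearman rho of CPM over cells for each pair of members, with H1 cells in the lower left and H9 cells in the upper right, on a colour scale from blue (negative) to red (positive). Grey marks members below 10 CPM or read in under 50% of cells, and black lines part the branches; the sterol block and the rows of SCD and INSIG1 are the reddest in H1.

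Branch scores, the mean z-score of log2(CPM + 1) over a branch's members in each cell, moved together. The sterol and fatty acid scores had a rho of 0.51 over 92 H1 cells and 0.47 over 91 H9 cells. Without the cells of unusual share these were 0.45 and 0.47, and without the 4 H9 cells that resembled each other 0.50. The sterol and regulator scores had a rho of 0.44 in H1 and 0.36 in H9, and the fatty acid and regulator scores 0.37 and 0.32. Without the cells of unusual share these were 0.36 and 0.38, and 0.29 and 0.35. No background from other pairs of gene sets was computed for the rho values between scores. A score averages several genes, and single genes gave far lower values. The median rho of a sterol with a fatty acid gene was 0.11 in H1 and 0.07 in H9. Within the fatty acid branch it was 0.02 and 0.03. The regulator score held 4 genes in H1, without SREBF1 and SREBF2, and 5 in H9, without SREBF1. Cell quality moved with the scores too: the spike-in share had a rho of -0.25 with the sterol score in H1 and -0.20 in H9, and -0.32 with the fatty acid score in H1 and -0.51 with the regulator score in H9. The number of genes read had a rho of 0.49 with the regulator score in H9, and of 0.14 with the sterol score in H1 and 0.26 in H9. The score of 11 G1/S genes had a rho of 0.25 with the sterol score in H1 and 0.09 in H9, and of 0.35 with the regulator score in H1. The score of 10 G2/M genes had a rho of -0.17 and 0.10 with the sterol score. Amino acid response genes gave a rho of 0.17 with the sterol score in H1 (5 genes) and 0.29 in H9 (3 genes). For 7 glycolysis genes it was 0.20 and 0.10. The part of cell quality, cell cycle, amino acid response and glycolysis in the shared variation was not tested.

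**Figure D5:**
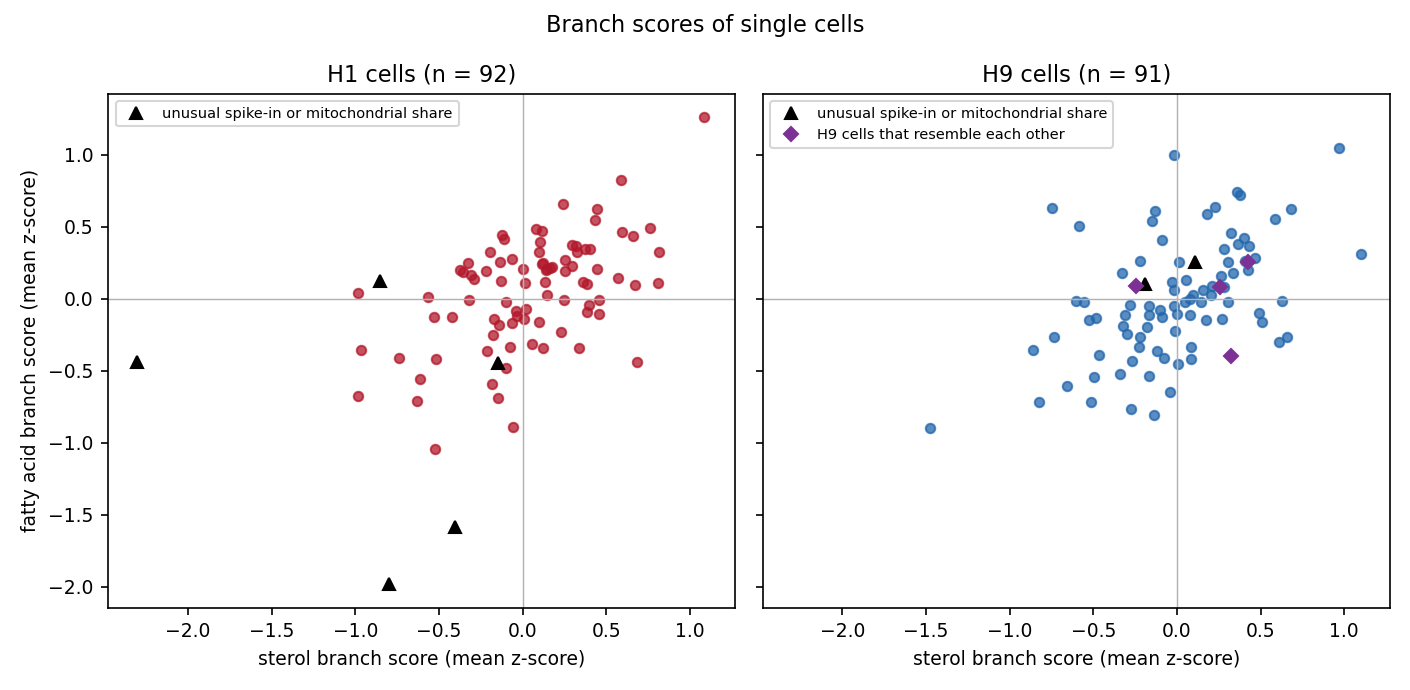
Sterol branch score against fatty acid branch score, as mean z-scores, for 92 H1 cells and 91 H9 cells, 1 point a cell, with triangles for the cells with an unusual share and diamonds for the 4 H9 cells that resembled each other. High scores go together in both panels (rho of 0.51 and 0.47), and 3 of the 5 triangles in H1 lie at the lowest values of one score or the other.

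Among 7941 genes outside the sterol branch, the gene whose level between cells was most like the sterol score was INSIG1, with a rho of 0.52 in H1 and 0.29 in H9. SCD followed at 0.47 and 0.34, and then MSMO1, a sterol enzyme that is no member, at 0.40 and 0.36. Likeness was ranked by the mean of both lines, and 0.466% of these genes had a mean rho of 0.25 or more. FASN ranked 10 at 0.32 and 0.26, ACLY 14 at 0.29 and 0.27, and TMEM97, a sterol-responsive membrane protein, 15 at 0.28 and 0.27. Other members ranked far lower: FADS1 304, ELOVL6 631, ACACA 1588 and FADS2 3429. The other genes named by the same rule were THOC5, DZANK1, C1QBP, C10orf95, CDC37L1, ANAPC11, CETN2, PER2 and HMGN2, with mean rho values of 0.28 to 0.33.

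The fatty acid score had as its most like genes, of 7947 outside that branch, B4GALT5 (mean rho 0.34), CD3EAP (0.34), GNE (0.33), DDX51 (0.32) and LIN28A (0.32), and 0.868% of genes had a mean rho of 0.25 or more. Among members of the other branches, INSIG1 ranked 5, and of the sterol genes ACAT2 ranked 9, FDFT1 12 and HMGCS1 23, while HSD17B7 ranked 641, LSS 789, FDPS 796, MVD 852 and IDI1 857. Within the fatty acid branch, ACACA had a rho of 0.01 in H1 and 0.07 in H9 with the score of its branch's other members, and FADS2 of 0.07 and -0.16. SCD had the highest such values in both lines, 0.22 and 0.34.

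Across the 48 bulk libraries, the median rho was 0.01 over 351 member pairs, against 0.02 over all gene pairs, with 46 (13.1%) at 0.3 or more where 8.19% of all gene pairs were, and 27 at -0.3 or less where 6.17% of all gene pairs were. FDFT1 with INSIG1 was at 0.63 and FDPS with STARD4 at -0.70. Sterol pairs had a median of -0.02, with 6 of 91 at 0.3 or more and 7 at -0.3 or less. Pairs of regulators had a median of 0.21, with 11 of 15 positive and 5 at 0.3 or more. The 7 pairs shared by the cells of both lines ran from -0.14 to 0.49 in bulk, with SCD and INSIG1 the highest.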

How the data were processed

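The values deposited are expected counts by gene from RSEM, which the authors made from 51 bp reads with CASAVA 1.8.2, Bowtie 0.12.8 and RSEM 1.2.3 on hg19, per the submitters' processing notes; the annotation and the use of strand are not given in the sources used here. The expected counts were used as deposited, and 92 spike-in rows were left out of the totals. Cells were summed per line and given as CPM, genes were compared at 10 CPM or more, and 2-fold was the size limit in place of a test, since each line's cells are 1 sample. A gene counted as read at a rounded count of at least 1. Spread was compared with the 101 genes nearest in mean level. Bulk values are means over 48 libraries. Transcript length and GC content came from GENCODE release 29 and promoters from RefSeq (GRCh38.p14), which differs from the mapping build. Named genes were the members, the other pathway genes and the 12 and 6 genes most like the sterol and fatty acid scores; a gene meeting each of the last rules is not reported here. Members and lists were chosen with earlier results of these data known. The computations were tested on simulated data. Software was scipy 1.17.1, pandas 2.3.3, numpy 2.4.6 and matplotlib 3.10.9 under Python 3.11.15, and edgeR 4.0.16 (R 4.3.3) for TMM factors.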

Additional observations from a re-analysis of the deposited data

How the results depend on the processing

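Recomputed under the other depth, other scaling factors, other limits and without doubtful cells, 59 counts of members or pairs stayed within 1.5 times of the reported count and 5 did not. Those 5 were of small numbers. Members 2-fold apart between lines numbered 2 in place of 1 at a minimum of 1 CPM. Members of high spread in H1 numbered 0 in place of 1 without each gene's highest cell and without cells of unusual share. In H9 they numbered 1 in place of 0 without cells of unusual share and without the cells that resembled each other (the latter, and the bulk library left out, were chosen after seeing the data). Members higher in H9 ran from 21 to 24, members 2-fold higher in cells from 7 to 8 and in bulk from 8 to 11. Pairs at a rho of 0.3 or more ran from 21 to 30 in H1, 11 to 21 in H9 and 41 to 62 in bulk. The log2 ratio kept its sign in 237 of 248 recomputed values between lines and in 185 of 186 against bulk; the exceptions were CYP51A1, EBP, ELOVL6 and MVD between lines and FDPS against bulk. Their main values lay within 0.07 of 0, and MVD reached -0.11 at 96 libraries per lane and ELOVL6 0.08 without cells of unusual share. The fatty acid median against bulk was -0.30 without cells of unusual share, where LPIN1 came over 10 CPM. No paired analysis was possible because no result comes from a test, and the cell numbers pair only the 2 sequencing depths of the same cDNA. Depth limits MVK, PMVK, TM7SF2, ACSS2, LPIN1 and SREBF1, which lay near or under 10 CPM in cells. It also limits SREBF2, which lay under 10 CPM in H1 cells.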
